A study of Mus musculus with 6 samples.

Results

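Purinergic receptors and ectonucleotidases are the proteins with which a cell senses and breaks down extracellular nucleotides. Microglia, the resident macrophages of the brain, are known for a high level of several of them. ATP and ADP leaking from damaged cells are read by P2Y receptors, which couple to G proteins, and by P2X receptors, which are ATP-gated cation channels. Ectonucleotidases on the cell surface strip the phosphates in turn, and the adenosine that results acts on adenosine receptors. The pathway thus steers process extension, process retraction, phagocytosis and cytokine release. The 10 genes described here were taken by name: P2ry12, P2ry13, P2ry6, P2ry14, P2rx4, P2rx7, Adora2a, Adora3, Entpd1 and Nt5e. All 10 had at least 1 probe on the array, 15 probes in all, out of 23462 named genes and 56601 probes tested.

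The data are expression microarrays of purified mouse brain microglia from 3 samples of B41 HET mice and 3 samples of B41 KO mice. B41 HET (genotype Bhlhe41 dTomato-Cre/+) carries a dTomato-Cre cassette in one copy of Bhlhe41, and B41 KO (Bhlhe41 dTomato-Cre/dTomato-Cre) carries it in both. Bhlhe41 is a transcriptional repressor of the basic helix-loop-helix family, and the cassette ends its translation. The mice were young, on a C57BL/6 background and aged 3 months per the study, and the labels name no treatment. Both groups therefore express dTomato and Cre from the Bhlhe41 promoter, the controls lack one working copy, and no wildtype sample entered the comparison. The cassette is present in all cells of the mouse, so the loss is not limited to microglia. Live CD45lo CD11b+ Cx3cr1+ cells were sorted after Percoll enrichment, and per the methods each sample pooled several mice, whereas the labels count 3 mice per genotype.

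Signals are given as log2 of the array signal after quantile normalization, a level per probe that can be compared between samples but not between probes. A gene was called changed where the limma fit over all probes gave a Benjamini-Hochberg adjusted p of 0.05 or less and a log2 fold change of at least 0.5 in size, and fold changes are B41 KO minus B41 HET throughout. The brightest probe stood for a gene. Between 70.1% and 75.5% of probes were well above background on each array, and none was saturated. All 13 microglia markers, Tmem119 and Sall1 among them, were well above background in every sample, and 1 of them was called, Fcrls, which was lower in B41 KO. Markers of other cells moved with genotype. Of 12 monocyte and neutrophil markers 8 were called lower: S100a8, S100a9, Ngp, Camp, Ltf, Retnlg, Mmp9 and Ly6g. The summed log2 level of the list was 14.56 to 14.72 in B41 HET and 11.97 to 12.10 in B41 KO. Mmp8 (log2 fold change -0.61), Ccr2 (-0.30) and Elane (-0.04) were not called. Neither was Mpo, which was higher in all B41 KO samples (0.39). Of 9 border macrophage markers 5 were called lower (summed level 11.29 to 11.40 against 10.74 to 10.88). That sum was mostly Stab1, the brightest of them (mean 11.07 against 10.58), which was not called. The median log2 fold change of the 9 was -1.10. Of 8 endothelial markers 2 were called lower (summed level 10.25 to 10.37 against 8.87 to 9.01). The endothelial markers called were Ly6c1 (-1.79) and Pecam1 (-1.68), while Cldn5 (-0.13), Kdr (-0.01) and Slco1a4 (0.04) were above background and not called. No monocyte, neutrophil or border macrophage marker was below background on all arrays, whereas the endothelial markers Cdh5, Tek and Flt1 were. The border macrophage markers Mrc1 and Lyve1 exceeded background in all 3 B41 HET samples but in no B41 KO sample. F13a1 did so in 3 B41 HET samples and 1 B41 KO sample. Over all lists of other cell types, 18 of 83 markers were called lower and none higher. The part of these cells in the results below was not tested, and in bulk samples fewer cells of a type and less RNA per cell cannot be told apart. Neither probe of the targeted gene Bhlhe41 was called: its log2 signal was 0.33 higher in B41 KO (SE 0.13, adjusted p = 0.203, limma) by one and 0.38 higher (SE 0.20, adjusted p = 0.330) by the other. Where these probes lie relative to the cassette was not examined, so they were not used to check the genotype labels.

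None of the 10 genes, and none of the 15 probes, was called changed between B41 KO and B41 HET microglia. Across the array 5.45% of genes were called, 4.01% lower and 1.44% higher in B41 KO, and 5.07% of probes. At an unadjusted p under 0.05, 5 of the 10 passed: the ADP receptors P2ry12 and P2ry13 with a lower signal in B41 KO, and the ATP-gated channel P2rx4 and the adenosine receptors Adora2a and Adora3 with a higher one. Over all genes 25% passed at that level. The count fell to 3 (P2ry12, P2ry13 and P2rx4) without B41 HET replicate 1. All B41 HET samples and B41 KO replicate 1 lay in one row of the slide and B41 KO replicates 2 and 3 in the other, so a fit with slide row as a block sets B41 KO replicate 1 alone against the B41 HET mean. In that fit, where the single sample is assumed to vary like the others, 1 member (P2ry12) passed. In these 5 genes and in Nt5e, which was below background, all samples of one genotype lay on one side of all samples of the other, as they did for 32.2% of genes on the array. The median log2 fold change was 0.02 over the 10 genes, those below background included, and 0.01 over all genes.

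**Figure D1:**
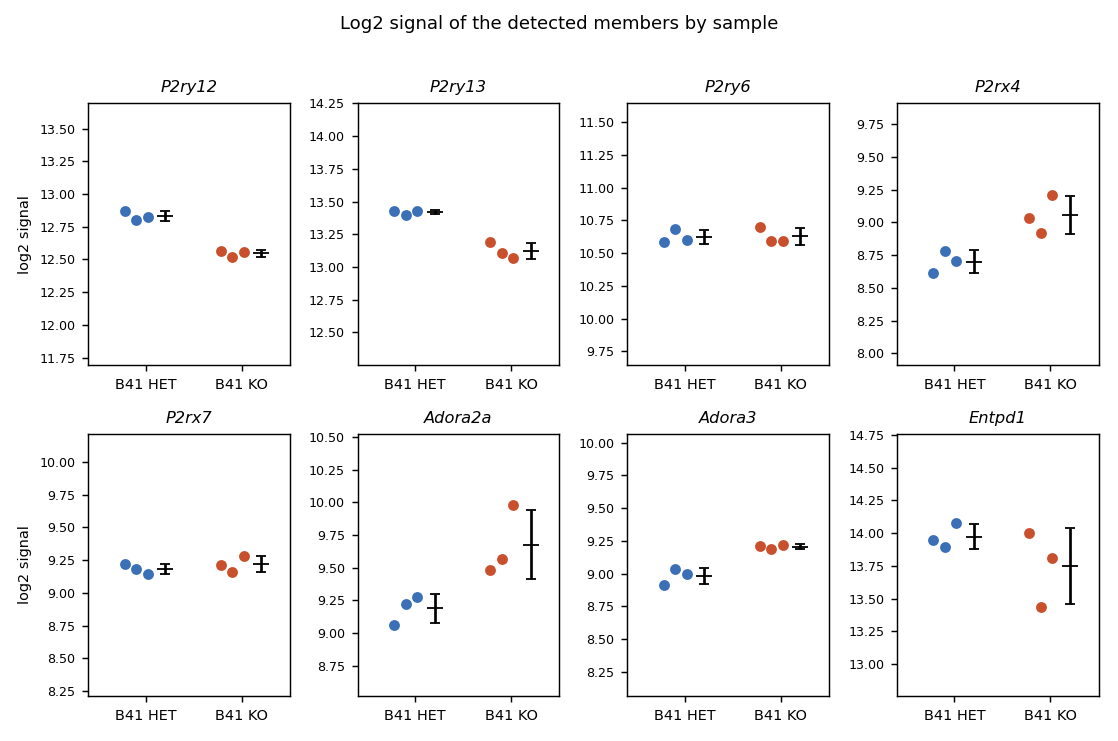
Log2 signal of the 8 members detected above background in every sample, one panel per gene, with the axis of each panel spanning the same number of log2 units around its own values. Points are samples, and bars are the group mean and SD (n = 3): P2ry12 and P2ry13 sit lower in all B41 KO samples, P2rx4, Adora2a and Adora3 higher, and P2ry6, P2rx7 and Entpd1 overlap.

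P2ry12 and P2ry13 are Gi-coupled receptors for ADP. P2ry12 is widely used as a microglia marker and is known to draw microglial processes toward sites of injury. Its log2 signal was 12.87, 12.80 and 12.82 in the B41 HET samples and 12.57, 12.52 and 12.56 in the B41 KO samples. The genotypes were separated by a gap of 0.23, larger than the spread within either. The log2 fold change was -0.28 (SE 0.065), so that the B41 KO signal was 82.2% of the B41 HET signal, and it did not pass the adjustment over all probes (adjusted p = 0.0644, limma). The 95% confidence interval, which is that of the probe alone and is not adjusted for the number of probes, ran from -0.44 to -0.12 and so did not reach a fall of 0.5.

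P2ry13 behaved alike in size. Its log2 signal was 13.43, 13.40 and 13.43 in B41 HET and 13.19, 13.11 and 13.07 in B41 KO, with all B41 KO samples below all B41 HET samples by at least 0.21. The log2 fold change was -0.30 (SE 0.069, 95% confidence interval -0.47 to -0.13, adjusted p = 0.0661, limma), which is 81.5% of the B41 HET signal. For each of these genes an exact permutation test of the samples gave p = 0.1, the smallest value that 3 samples against 3 allow. B41 KO replicate 1, the only B41 KO sample in the same row of the slide as the B41 HET samples, lay below all of them for both receptors, with differences from their mean of -0.26 for P2ry12 and -0.23 for P2ry13.

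P2ry6, the receptor for UDP that is known to trigger phagocytosis in microglia, did not differ beyond its spread. Its log2 signal was 10.59, 10.69 and 10.60 in B41 HET and 10.70, 10.59 and 10.59 in B41 KO. The log2 fold change was 0.001 (SE 0.073, adjusted p = 0.996, limma), with an interval of -0.18 to 0.18. P2ry14, a receptor for UDP-glucose, did not rise well above background in any sample by either of its probes, and no fold is given.

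P2ry12, P2ry13 and P2ry14 are neighbours on mouse chromosome 3, inside the span of Med12l, a subunit of the Mediator kinase module. Of the 11 genes from Clrn1 to Aadacl2fm3 that make up the stretch, none was called. In 3 of the 11 the genotypes were separated, against 32.2% over all genes. P2ry12 and P2ry13 were lower in all B41 KO samples. The other gene was higher in all of them, the non-coding F630111L10Rik, whose log2 signal was 7.28, 7.28 and 7.16 in B41 HET and 7.58, 7.31 and 7.74 in B41 KO (0.30, SE 0.13, adjusted p = 0.227, limma). Med12l itself overlapped between genotypes, with a log2 fold change of -0.30 (SE 0.18, adjusted p = 0.407). Other neighbours were Gpr171 (0.11), Igsf10 (-0.09), Clrn1 (-0.08) and Aadacl2fm3 (-0.42) on the log2 fold change scale, all with overlapping groups, of which Clrn1 and Aadacl2fm3 exceeded background in some samples. Aadacl2fm2 was below background throughout.

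Bhlhe41 is known to bind the E-box CACGTG, a palindrome that reads the same on both strands. The motif was searched in windows of 300 bases, from 250 bases before to 50 after each start site in RefSeq (GRCm38.p6). Of 32851 windows over all genes, 7.15% held it. The table had 13 windows for 8 of the 10 members and no entry for P2ry6 or Adora2a, and 1 of the 13 held the motif, that of P2ry12. Of 7 windows for 5 of the called pathway genes described further below, 1 held it, a window of Ampd3. The 250 bases before the start sites of P2ry12 and P2ry13 are shown because these neighbouring receptors had the most alike fold changes of the members, yet differ in the motif. Both are written 5′ to 3′ on the minus strand, at chr3:59262986-59263235 and chr3:59210883-59211132, with the E-box in capitals.
P2ry12: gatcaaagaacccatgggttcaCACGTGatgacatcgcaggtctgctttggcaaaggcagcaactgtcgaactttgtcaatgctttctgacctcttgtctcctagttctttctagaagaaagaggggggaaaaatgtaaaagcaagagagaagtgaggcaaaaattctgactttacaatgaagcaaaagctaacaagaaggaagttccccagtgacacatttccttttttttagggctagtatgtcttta
P2ry13: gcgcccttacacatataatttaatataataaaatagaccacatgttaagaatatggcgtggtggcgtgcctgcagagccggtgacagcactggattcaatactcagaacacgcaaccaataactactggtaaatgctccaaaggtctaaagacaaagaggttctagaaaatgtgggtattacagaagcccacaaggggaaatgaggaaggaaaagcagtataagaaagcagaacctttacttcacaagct
The E-box of P2ry12 ended 222 bases before the start site. A match is a description of the sequence, and binding was not measured in these data.

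The 5 genes whose brightest probe followed that of P2ry12 most closely over the 6 samples were Adpgk, Arhgap31, Ctsf, Cbr1 and Bckdha. Pearson's r was 0.999 for Adpgk, an ADP-dependent glucokinase, and Arhgap31, a GTPase-activating protein. It was 0.998 for Ctsf, a lysosomal cysteine protease, Cbr1, a carbonyl reductase, and Bckdha, a subunit of the branched-chain keto acid dehydrogenase. Adpgk and Cbr1 were called lower in B41 KO, with log2 fold changes of -0.94 (adjusted p = 0.0103, limma) and -0.61 (adjusted p = 0.0123). The others changed by amounts nearer to that of P2ry12, Arhgap31 by -0.34, Bckdha by -0.31 and Ctsf by -0.21, and were not called. Such likeness was common here: 1875 of 17199 genes compared had an r over 0.9 with P2ry12, over the same 6 samples and genotype split.

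**Figure D2:**
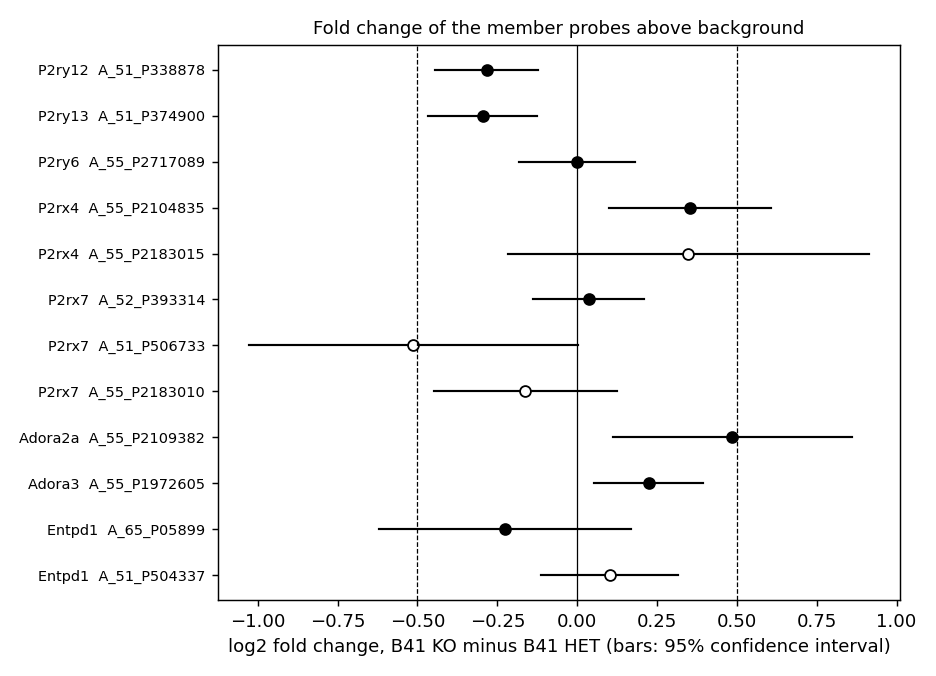
Log2 fold change, B41 KO minus B41 HET, of the 12 member probes above background with the 95% confidence interval from the limma fit, not adjusted for the number of probes. Filled points stand for the gene, open points are further probes, and dashed lines mark a log2 fold change of 0.5 in either direction; the intervals of P2ry12 and P2ry13 lie between the lower dashed line and 0.

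P2rx4 and P2rx7 encode ATP-gated cation channels, of which P2rx7 needs high ATP and is known for driving inflammasome activation. P2rx4 gave log2 signals of 8.61, 8.78 and 8.70 in B41 HET and 9.03, 8.92 and 9.21 in B41 KO. All B41 KO samples were above all B41 HET samples, and the log2 fold change was 0.35 (SE 0.10, 95% confidence interval 0.10 to 0.61, adjusted p = 0.109, limma). Its second probe had the same log2 fold change of 0.35 with a larger error (SE 0.23, adjusted p = 0.439), and its groups overlapped, because B41 HET replicate 1 stood at 8.44, above the B41 KO values of 8.28, 8.37 and 8.20. That second value was not steady, at 0.60 without B41 HET replicate 1 and 0.17 without B41 HET replicate 3.

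The 3 probes of P2rx7 were designed on different RefSeq transcripts and gave different values. The brightest did not separate the genotypes, with log2 signals of 9.22, 9.19 and 9.15 in B41 HET and 9.22, 9.16 and 9.28 in B41 KO (log2 fold change 0.04, SE 0.070, interval -0.14 to 0.21, adjusted p = 0.809, limma). The second, A_51_P506733, read 7.95, 8.19 and 7.71 in B41 HET and 7.62, 7.64 and 7.05 in B41 KO, so that all B41 KO samples were lower. Its log2 fold change of -0.51 carried a wide error (SE 0.21, interval -1.03 to 0.002, adjusted p = 0.219). It shrank to -0.32 without B41 KO replicate 3. The remaining probe gave -0.16 (SE 0.12, adjusted p = 0.479) with overlapping groups, and -0.07 without B41 KO replicate 3. The difference between the probes was not tested.

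Adora2a and Adora3 encode adenosine receptors, the first coupled to Gs and known for process retraction in activated microglia, the other coupled to Gi. Adora2a gave log2 signals of 9.07, 9.23 and 9.28 in B41 HET and 9.48, 9.57 and 9.98 in B41 KO. The B41 KO samples were all higher, with B41 KO replicate 3 well above the other two. The log2 fold change was 0.49 (SE 0.15, interval 0.11 to 0.86, adjusted p = 0.128, limma), the largest of the brightest probes, and the difference of B41 KO replicate 1 alone from the B41 HET mean was 0.29. Adora3 gave 8.91, 9.03 and 8.998 in B41 HET and 9.21, 9.19 and 9.22 in B41 KO. Here the samples of each genotype lay close together, all B41 KO samples above all B41 HET samples, and the log2 fold change was 0.22 (SE 0.069, interval 0.05 to 0.40, adjusted p = 0.125). By the exact permutation test P2rx4, Adora2a and Adora3 each gave p = 0.1, again the smallest possible.

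Entpd1 encodes CD39, the ectonucleotidase that splits ATP and ADP to AMP, and Nt5e encodes CD73, which turns AMP into adenosine. Entpd1 gave log2 signals of 13.95, 13.89 and 14.08 in B41 HET and 14.003, 13.43 and 13.81 in B41 KO by its brightest probe. The groups overlapped, since B41 KO replicate 1 lay within the B41 HET range while the other B41 KO samples were lower (log2 fold change -0.23, SE 0.16, interval -0.62 to 0.17, adjusted p = 0.476, limma). The difference came down to -0.07 without B41 KO replicate 2. Its second probe pointed the other way, at 0.10 (SE 0.086, adjusted p = 0.558), and ran from 0.045 without B41 HET replicate 3 to 0.16 without B41 HET replicate 1. Nt5e did not exceed background in any sample.

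The other genes of the pathway were read from 7 lists of 62 genes in all, grouped as receptors, enzymes, release, adenosine handling and coupling. Of these, 5 were called lower and 1 higher in B41 KO, which is 9.68% against 5.45% over all genes. In 30 of the 62 (48.4%) the genotypes were separated, against 32.2% over all genes. Only 6 of the 62 were below background on all arrays. With probes above background on fewer than 3 arrays filtered out, 8.03% of the remaining 18396 genes were called, which is nearer to 9.68%. No such share was taken for the separation. No other P2Y receptor, P2X channel, adenosine receptor or gene of nucleotide release was called. In these lists the lowest adjusted p belonged to P2ry2, a receptor for ATP and UTP (log2 fold change 0.49, adjusted p = 0.469, limma), P2rx6 (0.45, adjusted p = 0.101), Adora1 (0.14, adjusted p = 0.368) and Panx2, a pannexin (0.31, adjusted p = 0.152). The P2ry2 probe exceeded background in 3 of the 6 samples.

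**Figure D3:**
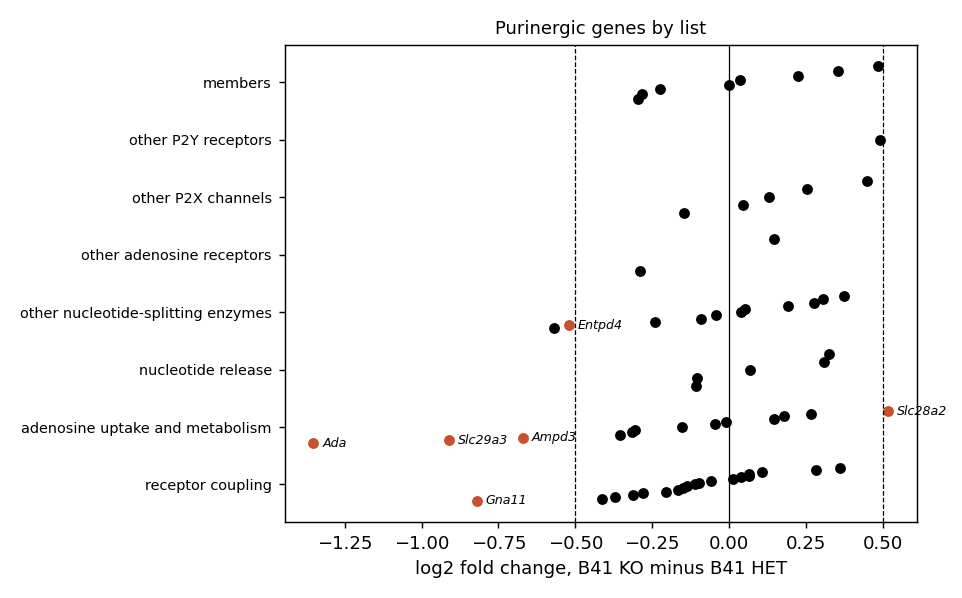
Log2 fold change, B41 KO minus B41 HET, of the 10 members and the 62 other pathway genes by list, one point per gene at its brightest probe, leaving out the 2 members and 6 other genes below background on all arrays. Orange points are called genes, dashed lines mark 0.5 in either direction, and the vertical place within a list follows the fold change; the called genes are Ada, Slc29a3, Gna11, Ampd3 and Entpd4 on the left and Slc28a2 on the right.

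Adenosine uptake and metabolism held 4 of the 6 called genes, out of 13, with a list median of -0.15 against 0.01 for all genes. Over all genes, dim ones included, 5.45% were called, whereas all 13 here were above background on all arrays. Because the lists were chosen with earlier results of these data known, these values only describe the list. An excess of calls was not tested. Slc29a3, which encodes the lysosomal nucleoside transporter ENT3, gave log2 signals of 12.14, 12.06 and 12.18 in B41 HET and 11.19, 11.29 and 11.18 in B41 KO. The genotypes lay far apart relative to their spread, and the log2 fold change was -0.91 (SE 0.073, adjusted p = 0.00506, limma). Ada, which encodes adenosine deaminase and turns adenosine into inosine, read 5.88, 5.83 and 5.61 in B41 HET and 4.70, 4.51 and 4.06 in B41 KO. It fell by 1.35 on the log2 scale (SE 0.18, adjusted p = 0.0178), and by 0.54 from median spot signals with normexp background correction and an offset of 50 (adjusted p = 0.00249). Its second probe was below background on all arrays, and over the mean of both the log2 fold change was -1.07 and not called (adjusted p = 0.0905). Ampd3, an AMP deaminase, read 7.10, 6.84 and 6.85 in B41 HET and 6.32, 6.17 and 6.29 in B41 KO. Its log2 fold change was -0.67 (SE 0.10, adjusted p = 0.0238), and its second probe gave -0.44 (SE 0.12, adjusted p = 0.101). With that background correction and offset it was -0.40, under the fold threshold. Slc28a2, a sodium-coupled nucleoside transporter, was the one gene called higher, with 6.60, 6.43 and 6.42 in B41 HET and 7.06, 6.89 and 7.07 in B41 KO (0.52, SE 0.093, adjusted p = 0.0350). Its change was 0.39 with the same background correction and offset, again under the fold threshold. The equilibrative transporter Slc29a1 and the purine nucleoside phosphorylase Pnp gave -0.35 and -0.31 and were not called. Slc29a4 went the other way, was higher in all B41 KO samples and was not called either (0.27, adjusted p = 0.0737, limma).

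Of 13 other nucleotide-splitting enzymes 1 was called, Entpd4, which acts inside the cell rather than on its surface. Its brightest probe read 7.73, 7.70 and 7.62 in B41 HET and 7.26, 7.07 and 7.17 in B41 KO (log2 fold change -0.52, SE 0.081, adjusted p = 0.0250, limma). Its other probes gave 0.03 (SE 0.11) and 0.33 (SE 0.12, adjusted p = 0.183), and over the mean of the 3 the log2 fold change was -0.05 (adjusted p = 0.724), so the call rests on the brightest probe. With normexp and the offset of 50 that probe gave -0.34, and with a 75th percentile shift -0.496, both under the fold threshold in size. Enpp2, a secreted phosphodiesterase, passed the adjusted p but not the fold (0.31, adjusted p = 0.0482).

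Among 19 genes of receptor coupling 1 was called, Gna11, an alpha subunit of the Gq class through which receptors such as P2ry6 signal. It read 9.56, 9.26 and 9.32 in B41 HET and 8.64, 8.59 and 8.46 in B41 KO, with no overlap and a log2 fold change of -0.82 (SE 0.11, adjusted p = 0.0163, limma). The Gq class subunits Gnaq (-0.21, adjusted p = 0.411) and Gna15 (-0.14, adjusted p = 0.293) were not called. Gnas, the Gs alpha subunit, and Plcb3, a phospholipase C, passed the adjusted p with smaller changes of -0.41 (adjusted p = 0.0443) and -0.37 (adjusted p = 0.0329). Kcnk13, the potassium channel opened downstream of P2ry12 in microglia, gave 0.36 and was not called (adjusted p = 0.105).

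**Figure D4:**
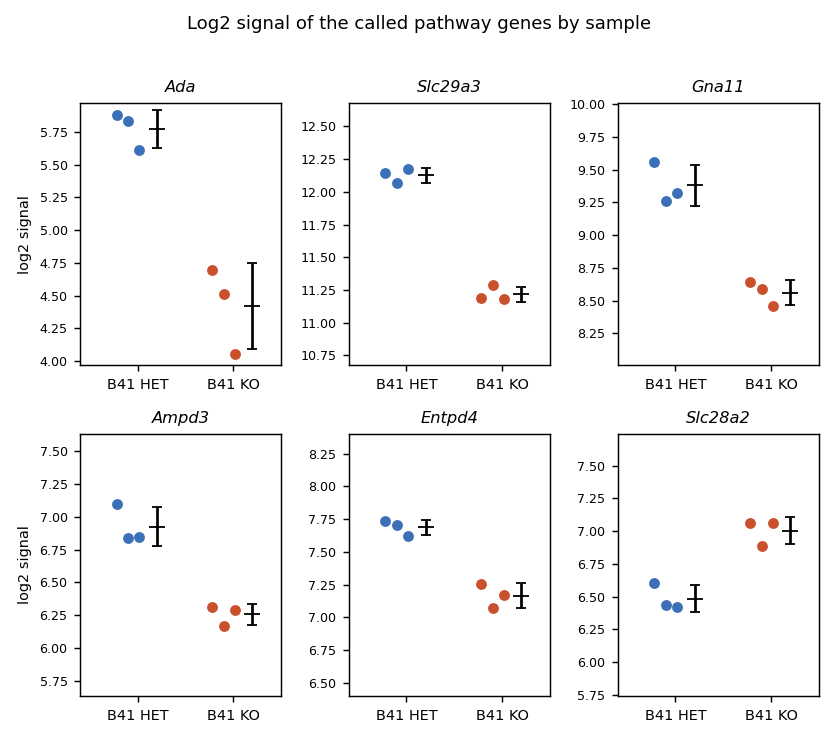
Log2 signal of the 6 called pathway genes, one panel per gene, with axes of equal span. Points are samples, and bars are the group mean and SD (n = 3): Ada, Slc29a3, Gna11, Ampd3 and Entpd4 are lower in all B41 KO samples and Slc28a2 is higher.

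These calls depended on the number of samples to different degrees. Slc29a3 was called whichever single sample was left out, with a log2 fold change of -0.94 to -0.89. Ada kept its call without B41 KO replicate 1 or 3 and lost it without any of the others, and Gna11 kept it without B41 HET replicate 1 alone. Ampd3, Entpd4 and Slc28a2 lost theirs whichever sample was left out, at adjusted p of up to 0.079, 0.0993 and 0.124 (limma), with no change of direction. With slide row as a block, that is with B41 KO replicate 1 alone against the B41 HET samples, none of the 6 was called. The log2 fold changes there were -0.94 for Slc29a3, -1.08 for Ada, -0.74 for Gna11, -0.61 for Ampd3, -0.43 for Entpd4 and 0.57 for Slc28a2.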

How the data were processed

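Gene expression of sorted microglia was measured on 1-colour Agilent mouse arrays, 1 per sample, in 3 B41 HET and 3 B41 KO samples. The deposited scanner files were made with Agilent Feature Extraction 11.5.1.1 per the file headers and hold a background-corrected, linear intensity per spot. The authors also deposited a table of log2 values that they had quantile-normalized, used here as an alternative. Groups and replicate numbers follow the labels.

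From the deposited intensity, control spots and spots flagged as outliers (95 to 136 per array) were left out, log2 values were quantile-normalized and spots of a probe averaged. Genotypes were compared with limma 3.58.1 in R 4.3.3, with Benjamini-Hochberg adjustment over all 56601 probes having at least 2 values per genotype. The thresholds of 0.05 and 0.5 are those of the methods. RefSeq accessions of the array design named 33767 probes (59.7%). Single genes were also tested with a two-sided exact permutation test. The script was tested on simulated data. Figures were drawn with matplotlib 3.10.9.

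The members and lists were chosen with earlier results of these data known. Named are all members, the called genes of each pathway list or else the gene with the lowest adjusted p, the position cluster of P2ry12 (1 gene of it is not reported here), the 5 genes most like it and Bhlhe41. Others (Slc29a1, Slc29a4, Pnp, Enpp2, Gnaq, Gna15, Gnas, Plcb3 and Kcnk13) were chosen after their values were seen. Alternatives covered normalization, background, filters, variance model, probe choice, blocks and left-out samples. The number of arrays limits the precision. Replicates are labelled biological, and per the methods each sample pooled several mice, so p-values measure the spread between pools.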

Additional observations from a re-analysis of the deposited data

How the results depend on the processing

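No member was called in either direction under any of the alternatives that kept both thresholds. The log2 fold change ranged from -0.30 to -0.24 for P2ry12, from -0.34 to -0.23 for P2ry13, from 0.28 to 0.42 for P2rx4, from 0.29 to 0.58 for Adora2a and from 0.19 to 0.25 for Adora3. Chosen after seeing the data, adjusted p alone with no fold threshold called 2 members lower (P2ry12 and P2ry13) with a trended, robust variance, and 1 lower (P2ry13) and 3 higher (P2rx4, Adora2a and Adora3) with normexp background correction.

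Changes of sign occurred in 3 members above background. P2ry6, near 0 throughout, gave -0.032 with a 75th percentile shift and -0.0039 with outlier spots kept, and -0.036 to 0.032 with single samples left out. P2rx7 gave -0.0032 by its brightest probe with normexp. Read by other probes in its place, the gene gave -0.21 over the mean of all 3 and -0.51 by A_51_P506733, the probe with the lowest p. Entpd1 gave 0.0297 with slide row as a block, which by the slide layout is B41 KO replicate 1 minus the B41 HET mean. No fold was recomputed for P2ry14 and Nt5e, which were below background.

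Of the pathway genes 5 were called lower and 1 higher. With a 75th percentile shift these counts were 4 and 1, Entpd4 being lost. With normexp these counts were 3 and 0, with slide row as a block 0 and 0, with the replicate block 0 and 0, and with single samples left out 1 to 2 and 0 to 0. With no fold threshold 7 were called lower and 2 higher, and by the probe with the lowest p likewise 7 and 2.

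Over all genes the count of 1279 called became 791 with normexp, 200 with slide row as a block, 21 with the replicate block and 367 to 701 with single samples left out. The labels number replicates in both genotypes and do not say whether same-numbered samples belong together. Their deviations correlated at 0.0276, 0.0136 and 0.0478, and those of differently numbered samples at -0.0506 to 0.0281. All of these are weak, and so few pairs cannot show whether the numbers mark a pairing. With the percentile shift 802 genes were called lower and 439 higher, against 940 and 339. Normexp was run on median spot signals with an offset of 50, so it differs from the processed signal in more than the background correction.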
